A study of Mus musculus with 18 samples.

Results

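Undifferentiated mouse embryonic stem (ES) cells given the ligands LG268 and GW3965 together were compared with ES control cells. The comparison takes every library of these groups, 2 with both ligands and 2 controls, out of 18 libraries in the series. The cells were wild type E14, a mouse ES line, kept without feeder cells on gelatin in serum medium with leukemia inhibitory factor, and no allele differed between the groups. Cells with both ligands had them for 24 h, each at 1 µM. Cells given GW3965 alone (2 libraries) or LG268 alone (2 libraries), also for 24 h at 1 µM, serve below as further comparisons. ES control cells are labelled as day 0 and as the control for both ligands, and dimethylsulfoxide was the vehicle in the treatment protocol. The names of the deposited files of the both-ligand group carry an abbreviation of control, and the sample labels were followed. Nothing in the labels says whether the 2 libraries of a group came from separate cultures, so p-values measure the spread between these libraries, which may be technical.

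GW3965 is an agonist of the liver X receptors (LXRα, encoded by Nr1h3, and LXRβ, encoded by Nr1h2), nuclear receptors that sense oxidised cholesterol and switch on genes that export cholesterol and make fatty acids. LG268 is an agonist of the retinoid X receptors (RXRs), which bind DNA mostly as partners of other nuclear receptors. Some pairs, such as RXR with LXR or with the peroxisome proliferator-activated receptors (PPARs), can be activated by a ligand of either partner. RXR also pairs with the retinoic acid receptors, whose targets include Rarb. LXR-RXR pairs bind a direct repeat of the hexamer AGGTCA with a spacer of 4 bases, the DR4 element.

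RNA was sequenced and reads were counted per gene symbol. Gene counts were 19.48 and 20.54 M in both-ligand libraries, 44.79 and 20.92 M with GW3965, 29.2 and 22.38 M with LG268, and 24.36 and 27.24 M in ES control libraries. Levels are in CPM, gene counts divided by the library total and scaled by TMM factors over the 8 ES libraries, and are compared within a gene only. The ES cell markers Pou5f1 and Nanog, which encode core pluripotency factors, were at 639 and 656 CPM and at 350 and 327 CPM with both ligands, against 639 and 655 CPM and 327 and 336 CPM in ES control. The other 6 genes fixed as ES markers were at 39.5 to 379 CPM with both ligands, against 51.9 to 424 CPM in ES control. Among them Sox2 and Zfp42 were lower with both ligands in the test given below.

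The both-ligand libraries stood further apart than those of any other ES group. Among genes at 20 CPM or more, 8.62% (711 of 8246) differed by over 1.25-fold between the both-ligand libraries, against 0.192% (16 of 8324) between the GW3965 libraries, 0.168% (14 of 8317) between the LG268 libraries and 0.625% (52 of 8316) between the ES control libraries. The coefficient of variation within a group was 9.07% with both ligands, 2.96% with GW3965, 2.93% with LG268 and 3.57% in ES control. It is called biological in edgeR but may be technical here. The gap ran with the GC content of the transcript, as the plot of the gap by GC content shows. Its median, as log2 of replicate 2 over replicate 1, was -0.11 in genes under 40% GC and 0.39 in genes over 60% GC with both ligands, while it lay between -0.03 and 0.04 in every GC class of the other ES groups. Replicate 1 carried most of the trend. Relative to ES control, its median log2 level was 0.21 under 40% GC and -0.44 over 60% GC, and that of replicate 2 was 0.09 and -0.06. The part of this trend in the single gene results was not tested, and each comparison was repeated without each library and with offsets for GC content.

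**Figure D1:**
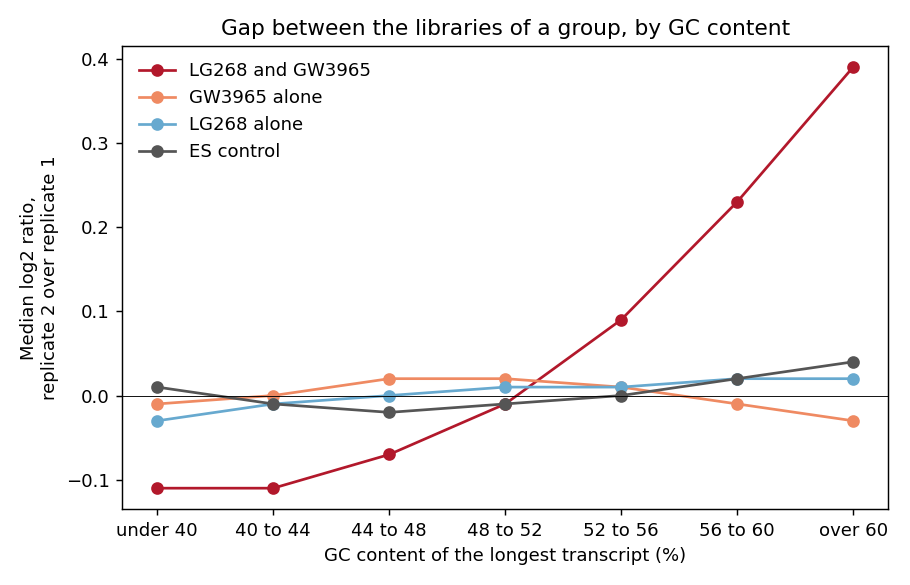
Median log2 ratio of replicate 2 over replicate 1 (y axis) for genes at 20 CPM or more, in classes of transcript GC content (x axis, %), with 1 line for each ES group. The line of both ligands runs from -0.11 in the lowest class to 0.39 in the highest, and the other 3 lines stay within -0.03 and 0.04.

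With both ligands, 16 of 23 genes of fatty acid synthesis and desaturation and 12 of 21 LXR targets rose against ES control, and 8 of 16 genes of the primitive streak and mesoderm fell. The fatty acid and LXR lists overlap, and the rises of Fasn, Scd1 and Scd2 count in both. Of 14881 genes tested against ES control, 427 were called (2.87%), 270 higher (1.81%) and 157 lower (1.06%). The count in each gene list below is to be read beside these shares. The lists and their members were chosen with earlier results of these data known. Their counts are therefore a description and no independent support. A change of 2-fold or more was called in 80 genes (0.538%), 58 higher (0.39%) and 22 lower (0.148%). A gene was called at a Benjamini-Hochberg adjusted p below 0.05 in the quasi-likelihood test of edgeR, fitted to the 4 libraries compared, and 3123 genes had an unadjusted p below 0.05. The 2 both-ligand libraries lay above both controls in 26.5% of genes and below both in 27.2%, 53.7% together, so a lack of overlap is common here. Without ES control replicate 1 or 2 the call count was 151 or 179. Without both-ligand replicate 1 or 2 it was 1834 or 4538, with the remaining library taken to vary as little as the controls do. With GC offsets it was 1159 (7.79%), 545 higher (3.66%) and 614 lower (4.13%). Of the 427 calls, 106 (83 higher, 23 lower) were made under every alternative run, and no call shared with an alternative had the opposite sign.

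**Figure D2:**
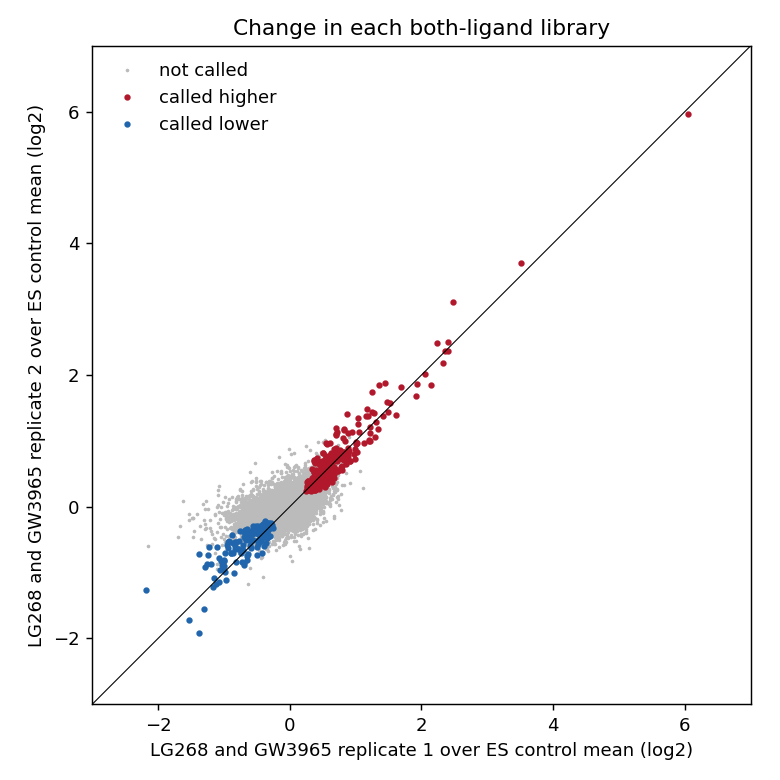
Log2 ratio to the ES control mean in both-ligand replicate 1 (x axis) and replicate 2 (y axis). Each point is a gene tested that reached 5 CPM in at least 1 of the 4 libraries. Points are red where called higher, blue where called lower and grey where not called. Over all called genes, with those under 5 CPM that are not drawn, the median of the genes called higher is 0.59 in both libraries. That of the genes called lower is -0.56 in replicate 1 and -0.45 in replicate 2.

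The promoters of 4 lipid genes that rose are shown because each holds a DR4-type sequence near the gene start. Abca1 exports cholesterol to apolipoproteins, Srebf1 encodes the transcription factor SREBP-1 of fatty acid synthesis, Fasn encodes fatty acid synthase, and Acsl3 activates long-chain fatty acids with coenzyme A. The windows are RefSeq sequences of GRCm38.p6, from 250 bases before to 50 bases after the gene start, on the gene's strand. They lie at chr4:53159846-53160145 (minus strand) for Abca1, chr11:60210422-60210721 (minus) for Srebf1, chr11:120824498-120824797 (minus) for Fasn and chr1:78657575-78657874 (plus) for Acsl3. Capitals mark the match to the pattern NGGTNANNNNNGGTCA, 2 hexamers with 4 bases between them, which in all 4 reads on the opposite strand.
Abca1: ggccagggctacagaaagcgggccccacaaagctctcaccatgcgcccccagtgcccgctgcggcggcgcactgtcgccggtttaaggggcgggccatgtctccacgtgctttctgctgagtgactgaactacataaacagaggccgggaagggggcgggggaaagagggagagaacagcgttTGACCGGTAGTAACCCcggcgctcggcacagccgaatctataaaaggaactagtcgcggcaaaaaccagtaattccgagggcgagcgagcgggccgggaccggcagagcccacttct
Srebf1: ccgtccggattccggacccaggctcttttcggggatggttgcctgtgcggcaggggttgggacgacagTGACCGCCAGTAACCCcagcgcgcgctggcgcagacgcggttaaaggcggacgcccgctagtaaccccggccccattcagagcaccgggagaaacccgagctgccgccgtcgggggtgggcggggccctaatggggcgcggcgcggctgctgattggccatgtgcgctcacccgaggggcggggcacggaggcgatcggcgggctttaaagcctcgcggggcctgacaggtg
Fasn: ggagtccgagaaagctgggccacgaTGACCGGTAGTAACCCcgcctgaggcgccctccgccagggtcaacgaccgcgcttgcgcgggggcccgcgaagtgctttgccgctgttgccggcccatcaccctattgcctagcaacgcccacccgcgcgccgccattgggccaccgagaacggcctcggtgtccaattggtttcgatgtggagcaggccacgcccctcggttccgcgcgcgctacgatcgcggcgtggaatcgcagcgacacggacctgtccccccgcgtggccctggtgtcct
Acsl3: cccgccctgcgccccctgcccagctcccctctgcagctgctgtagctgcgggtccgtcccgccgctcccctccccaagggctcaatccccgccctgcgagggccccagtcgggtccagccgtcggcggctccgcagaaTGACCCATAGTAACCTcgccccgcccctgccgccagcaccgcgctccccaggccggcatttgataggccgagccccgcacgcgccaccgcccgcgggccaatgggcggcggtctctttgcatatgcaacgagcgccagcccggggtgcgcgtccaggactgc
Read along its own strand, the element is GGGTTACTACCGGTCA in both Abca1 and Fasn, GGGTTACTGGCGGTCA in Srebf1 and AGGTTACTATGGGTCA in Acsl3. It starts 67 bases upstream of the gene start in Abca1, 182 in Srebf1, 225 in Fasn and 112 in Acsl3. Srebf1 has other RefSeq windows without a match. Searched on both strands, the pattern occurred in 68 of 32851 windows (0.207%), belonging to 61 genes, of which 33 have a row in the files and 23 were tested. With both ligands 6 of these 23 rose and 0 fell, beside 1.81% and 1.06% over all genes tested. Beside the 4 genes shown they were Tmco4 and Prrg4, 2.50-fold and 1.87-fold higher (adjusted p = 0.00245 and 0.000883, edgeR). The other 17 were not called, among them Idh3b (log2 0.09 ± 0.065, SE) and Scly (log2 -0.32 ± 0.11). A match describes the letters in the window and is no measure of binding. The pattern was chosen with earlier results of these data known, so the 6 of 23 is a description and no independent support.

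Cholesterol export genes had the largest rises of all. Abca1 was at 530 and 499 CPM with both ligands, against 8.17 and 6.94 CPM in ES control. The groups lay far apart, a 68.4-fold difference (log2 6.10 ± 0.096, SE, adjusted p = 3.81e-08). Abca1 had 314 and 307 CPM with GW3965 alone and 37.0 and 35.6 CPM with LG268 alone, so all 4 groups were separate, and both ligands exceeded GW3965 alone by 1.66-fold (adjusted p = 0.00497) and LG268 alone by 14.2-fold (adjusted p = 3.47e-08). Abcg1, whose product moves cholesterol to lipoprotein particles, was at 254 and 290 CPM with both ligands, 180 and 186 CPM with GW3965, 52.9 and 50.9 CPM with LG268 and 21.5 and 22.0 CPM in ES control. It ran in the same order. The excess was 12.5-fold against ES control (adjusted p = 3.39e-07) and 1.48-fold against GW3965 alone (adjusted p = 0.0241).

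Of 21 tested LXR targets, out of 24 listed, 12 rose and 0 fell (13 and 0 at an unadjusted p below 0.05), with a median log2 difference of 0.78 against -0.00 over all genes tested. The count stayed between 10 and 15 when any 1 of the 4 libraries was left out. Srebf1 was at 783 and 1212 CPM with both ligands, 777 and 761 CPM with GW3965, 235 and 243 CPM with LG268 and 136 and 144 CPM in ES control. Its both-ligand libraries differed widely from each other but both lay far above ES control (7.14-fold, adjusted p = 0.000177), while replicate 1 was at the level of GW3965 alone, and the difference from that group did not pass the test (log2 0.37 ± 0.16, adjusted p = 0.226). Lpcat3, which puts polyunsaturated chains into phospholipids, was at 369 and 359 CPM with both ligands, 173 and 181 CPM with GW3965, 135 and 134 CPM with LG268 and 87.3 and 88.8 CPM in ES control. It rose 4.14-fold over ES control (adjusted p = 1.47e-06) and stood 2.05-fold above GW3965 alone (adjusted p = 0.00135).

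Mylip broke this order. It encodes a ubiquitin ligase that acts on lipoprotein uptake, and was at 31.8 and 34.5 CPM with both ligands, 46.9 and 50.2 CPM with GW3965, 9.02 and 10.4 CPM with LG268 and 10.1 and 8.84 CPM in ES control. Both ligands gave 3.51-fold more than ES control (adjusted p = 0.000249) but 1.46-fold less than GW3965 alone (log2 -0.55 ± 0.089, adjusted p = 0.0406), and the LG268 libraries overlapped ES control. Rnf145, a ubiquitin ligase of sterol metabolism, rose 2.25-fold and Lpl, lipoprotein lipase, 1.72-fold (adjusted p = 6.12e-05 and 0.00419). The transfer protein gene Pltp rose 1.48-fold (adjusted p = 0.0351) and the apolipoprotein gene Apoc1 1.72-fold (adjusted p = 0.0499), and both calls ended without ES control replicate 1 (adjusted p = 0.0721 and 0.283). Pltp shares 19.3% of its exon bases with Ctsa on the other strand, and the strand setting of the counts is not given in the sources used here.

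Of the 21 LXR targets tested, 9 were not called. Apoe, the apolipoprotein of brain and macrophages, was at 329 and 469 CPM with both ligands, against 316 and 357 CPM in ES control, overlapping groups with a log2 difference of 0.25 ± 0.14 (adjusted p = 0.361). Mlxipl, which encodes the glucose-responsive factor ChREBP, was at 18.2 and 19.8 CPM with both ligands, against 18.7 and 19.8 CPM in ES control, and Arl4c, Mertk and Smpdl3a had log2 differences of 0.11 to 0.18. Abcg5 and Abcg8, the sterol exporters of liver and gut, stayed below 0.3 CPM and were not tested.

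**Figure D3:**
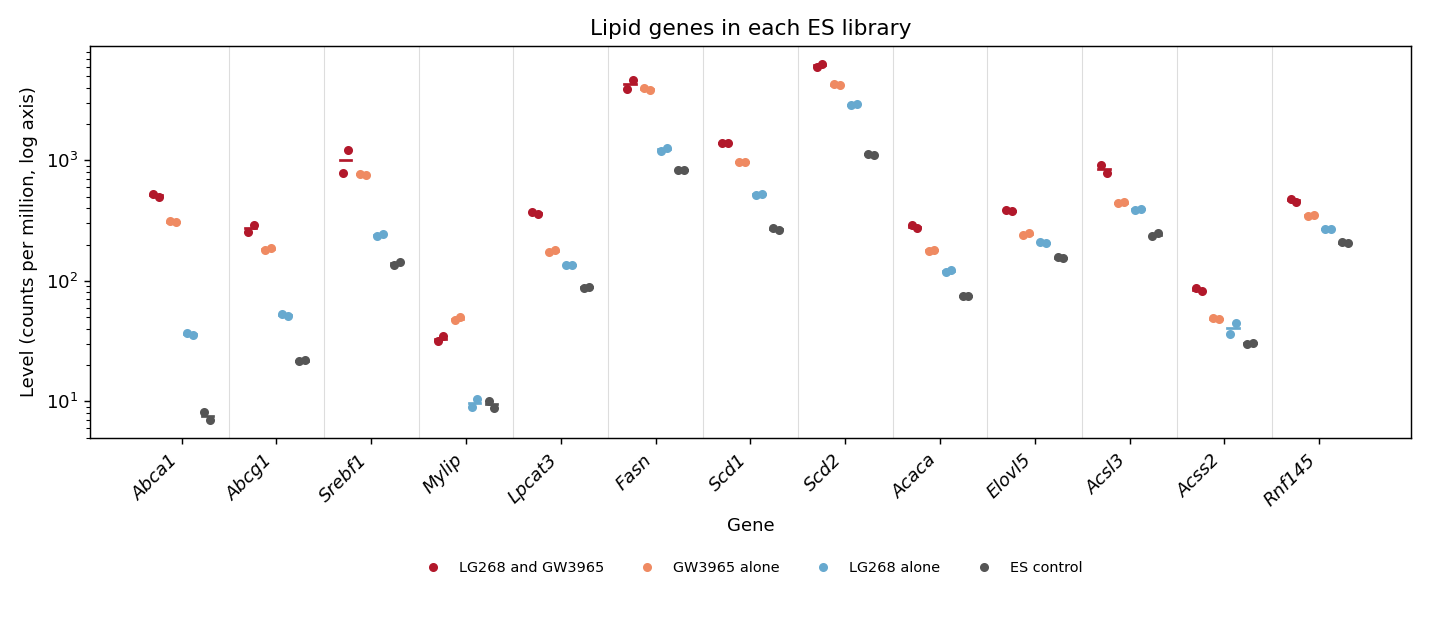
Levels of 13 lipid genes (CPM, log axis) in each ES library, with points for libraries, bars for group means, and the groups in the order both ligands, GW3965 alone, LG268 alone and ES control from left to right. The both-ligand points are the highest for most genes, Srebf1 and Fasn have 1 both-ligand library at the level of GW3965 alone, and for Mylip the GW3965 points are the highest.

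Genes of fatty acid synthesis and desaturation rose in 16 of 23 cases with 0 lower (18 and 0 at an unadjusted p below 0.05, median log2 0.77), and in 14 to 18 when 1 library was left out. The desaturases, which put the first double bond into a fatty acid, were among the largest rises. Scd2 was at 5927 and 6332 CPM with both ligands, against 1139 and 1097 CPM in ES control, and Scd1 was at 1388 and 1394 CPM against 276 and 264 CPM. Neither gene overlapped between the groups, and the rises were 5.49-fold and 5.16-fold (adjusted p = 3.39e-07 for both). Each was also higher than with GW3965 alone, 1.44-fold for Scd2 and 1.43-fold for Scd1 (adjusted p = 0.00676 for both). The related Scd3 and Scd4 rose 3.40-fold and 8.40-fold (adjusted p = 0.00233 and 0.00339), although Scd4 stayed at 3.36 and 3.50 CPM with both ligands, against 0.367 and 0.438 CPM in ES control.

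Fasn was at 3922 and 4661 CPM with both ligands, 3969 and 3856 CPM with GW3965, 1206 and 1266 CPM with LG268 and 825 and 834 CPM in ES control. It was 5.18-fold above ES control (adjusted p = 3.12e-06), but the both-ligand and GW3965 libraries overlapped and their difference did not pass (log2 0.13 ± 0.078, adjusted p = 0.358). Acaca, acetyl-CoA carboxylase 1, the rate-limiting step, was at 288 and 275 CPM with both ligands, 177 and 181 CPM with GW3965, 118 and 124 CPM with LG268 and 74.7 and 75.0 CPM in ES control. Its groups were all separate, with a 3.76-fold rise over ES control (adjusted p = 3.01e-06) and 1.57-fold over GW3965 alone (adjusted p = 0.00552), though 52.6% of its 50-mers also occur in another annotated gene. Acacb, which makes malonyl-CoA at mitochondria, did not pass (35.8 and 42.7 CPM with both ligands, against 28 and 28.2 CPM in ES control, adjusted p = 0.0575).

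The enzymes that make long and polyunsaturated chains rose less. Elovl5, the elongase of polyunsaturated chains, was at 386 and 379 CPM with both ligands, against 157 and 155 CPM in ES control, 2.46-fold higher (adjusted p = 2.29e-05). The desaturase genes Fads2 and Fads1 rose 2.15-fold and 1.5-fold (adjusted p = 0.000266 and 0.0029), and Elovl6, which extends saturated chains, 1.40-fold (adjusted p = 0.0212). The Elovl6 call ended without ES control replicate 2 (adjusted p = 0.118). Acly, which makes cytosolic acetyl-CoA from citrate, rose 1.35-fold (adjusted p = 0.00556, but 0.0513 without ES control replicate 1).

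Acsl3 was at 918 and 781 CPM with both ligands, 440 and 447 CPM with GW3965, 390 and 393 CPM with LG268 and 237 and 247 CPM in ES control. Each single ligand stood between the outer groups, and both ligands gave 3.52-fold the ES control level (adjusted p = 2.38e-05) and 1.91-fold that of GW3965 alone (adjusted p = 0.00497). Utp14b, whose exons overlap those of Acsl3 on the same strand over 3.2% of their bases, rose 4.07-fold (adjusted p = 6.84e-05). Acsl4 rose 1.70-fold (adjusted p = 0.000787), and Acsl1 1.49-fold (adjusted p = 0.0183), which ended without ES control replicate 1 or 2 (adjusted p = 0.102 and 0.0624). Mid1ip1, an activator of acetyl-CoA carboxylase, and Pnpla3, a lipid droplet lipase, rose 3.12-fold and 2.93-fold (adjusted p = 0.00147 and 0.000691).

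Of 10 genes that supply NADPH, citrate and acetyl-CoA, 2 rose and 0 fell: Acss2, which makes acetyl-CoA from acetate, 2.80-fold (86.3 and 82.9 CPM with both ligands, against 29.8 and 30.7 CPM in ES control, adjusted p = 6.36e-05), and Idh1, cytosolic isocitrate dehydrogenase, 1.48-fold (adjusted p = 0.0175). Of 19 genes of glycerolipid and phospholipid synthesis, 3 rose and 0 fell, with Lpin1, a phosphatidate phosphatase, 2.02-fold higher (adjusted p = 0.00136), beside Lpcat3 and Etnk1. The Etnk1 call ended without ES control replicate 1 or 2 (adjusted p = 0.189 and 0.297). The triglyceride synthesis genes Dgat1 and Dgat2 were not called, with log2 differences of -0.04 ± 0.1 and 0.21 ± 0.16. Over all genes tested 1.81% were called higher and 1.06% lower in the 4-library fit. In a fit of all 18 libraries, which called 11.3% of 17166 genes (4.83% higher, 6.47% lower), 5 of the supply genes and 6 of the glycerolipid genes were higher. That fit shares its spread over all libraries, which would be too small for the both-ligand libraries.

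Of 20 tested genes of cholesterol synthesis 4 rose and 0 fell (8 and 4 at an unadjusted p below 0.05), with a median log2 difference of 0.13. Pmvk, phosphomevalonate kinase, rose 1.72-fold (adjusted p = 0.00213) and Lss, lanosterol synthase, 1.55-fold (adjusted p = 0.00233). Dhcr7, of the last step, rose 1.26-fold (adjusted p = 0.0414, but 0.332 and 0.247 without ES control replicate 1 or 2). Hmgcs1, at the start of the pathway, was at 751 and 708 CPM with both ligands, against 718 and 711 CPM in ES control, and the squalene epoxidase gene Sqle at 150 and 155 CPM, against 178 and 179 CPM. Neither was called in the 4-library fit (adjusted p = 0.771 and 0.0941), while the 18-library fit had 4 higher and 4 lower members, Sqle among the lower.

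Among 18 genes of sterol uptake, transport and sensing, 2 rose and 0 fell, beside 1.81% and 1.06% over all genes tested. Their median log2 difference was 0.10. Insig1, which holds SREBP in the endoplasmic reticulum, rose 1.69-fold (adjusted p = 0.00147). Srebf2, which encodes the SREBP of cholesterol synthesis, was at 361 and 494 CPM with both ligands, against 449 and 465 CPM in ES control, overlapping groups with adjusted p = 0.71. The 18-library fit had 6 higher and 0 lower members.

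**Figure D4:**
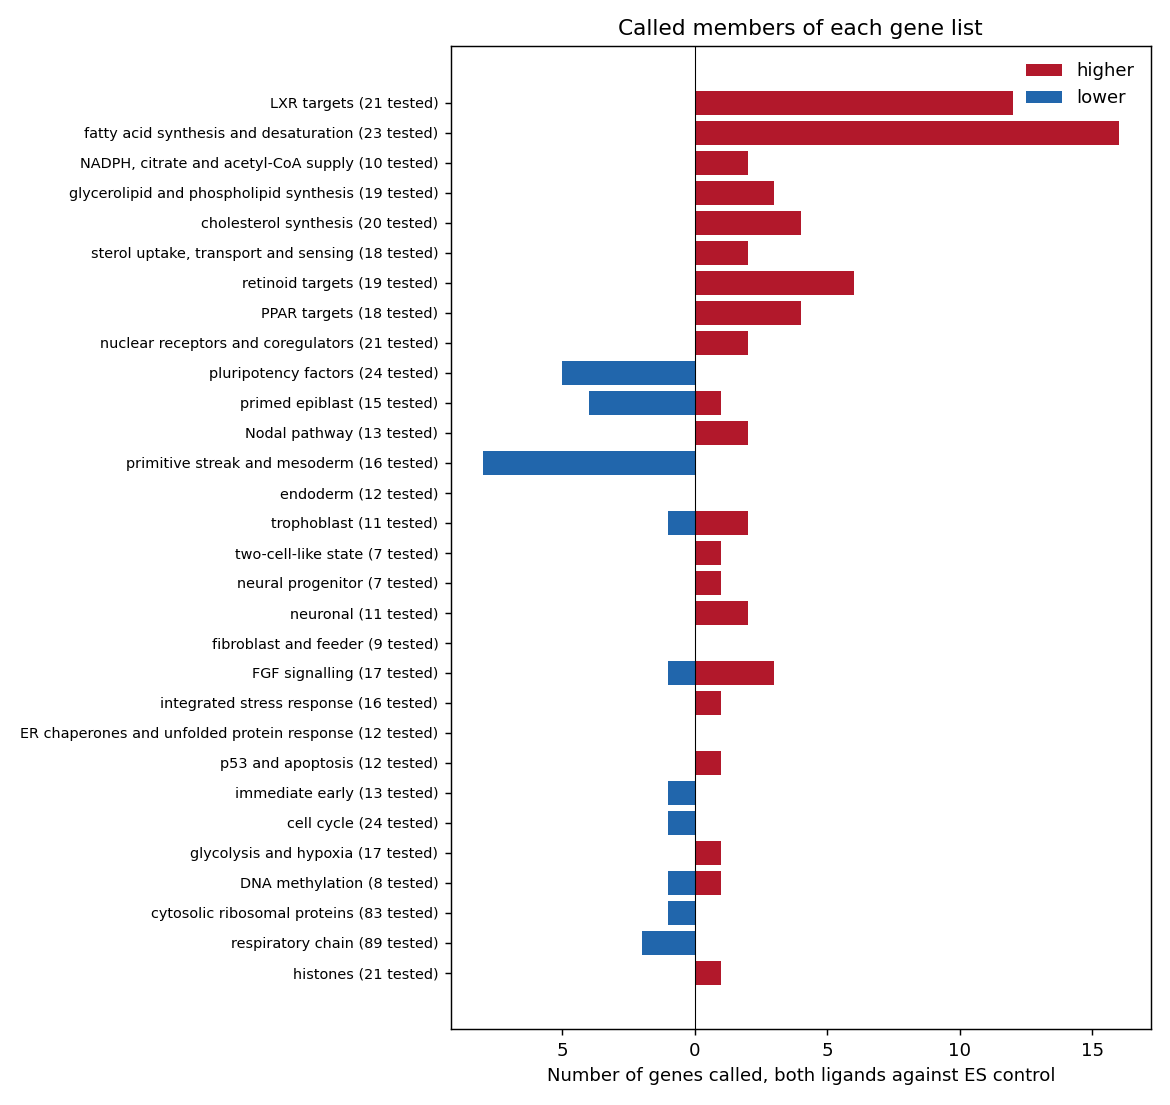
Number of genes called higher (red, to the right of 0) and lower (blue, to the left) with both ligands against ES control in each gene list (y axis, with the number tested). The longest bars are the 16 and 12 higher genes of fatty acid synthesis and LXR targets and the 8 lower genes of primitive streak and mesoderm. Fasn, Scd1 and Scd2 count in both the fatty acid and the LXR bar.

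Retinoid targets rose in 6 of 19 cases with 0 lower (11 and 1 at an unadjusted p below 0.05, median log2 0.69). Tgm2, a transglutaminase, was at 42.6 and 43.4 CPM with both ligands, 27.3 and 29.7 CPM with GW3965, 44.2 and 42.6 CPM with LG268 and 26.3 and 26.9 CPM in ES control, 1.62-fold higher than ES control (adjusted p = 0.00784).

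Crabp2, a carrier of retinoic acid to the nucleus, rose 2.36-fold (18.8 and 23.5 CPM with both ligands, against 8.70 and 9.20 CPM in ES control, adjusted p = 0.0054). Nrip1, a corepressor of nuclear receptors, Stra8, a meiosis gene, and Dhrs3, which reduces retinal, rose 1.68-fold, 2.26-fold and 1.58-fold (adjusted p = 0.0198, 0.0457 and 0.0469). These 3 calls ended without ES control replicate 1 (adjusted p = 0.1, 0.1 and 0.262) and without replicate 2 (adjusted p = 0.0769, 0.145 and 0.108), which leaves 3 genes. Rarb, a retinoic acid receptor and a direct target, was at 1.96 and 1.53 CPM with both ligands, against 0.653 and 0.621 CPM in ES control. Its groups did not overlap, but the difference did not pass (log2 1.45 ± 0.37, adjusted p = 0.0779). It passed in the fit of all 18 libraries (adjusted p = 0.00376), whose shared spread would be too small for the both-ligand libraries. Rarb shares 34.1% of its exon bases with Top2b on the other strand. Cyp26a1, the retinoic acid hydroxylase, was at 10.8 and 9.96 CPM with both ligands, against 11.5 and 9.60 CPM in ES control (log2 -0.02 ± 0.15, adjusted p = 0.952).

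PPAR targets rose in 4 of 18 cases with 0 lower (9 and 2 at an unadjusted p below 0.05, median log2 0.32). Plin2, the coat protein of lipid droplets, was at 167 and 143 CPM with both ligands, 80.1 and 81.1 CPM with GW3965, 131 and 133 CPM with LG268 and 67.8 and 75.1 CPM in ES control. It was highest with both ligands, by 2.18-fold against ES control (adjusted p = 0.000965). Its difference was log2 0.94 ± 0.085 from GW3965 alone and 0.24 ± 0.082 from LG268 alone (adjusted p = 0.00497 and 0.239). Genes of fatty acid oxidation rose by less, Slc25a20 1.47-fold, Acadvl 1.37-fold and Cpt1a 1.31-fold (adjusted p = 0.0414, 0.0231 and 0.0335). All 3 calls ended without ES control replicate 1 (adjusted p = 0.283, 0.214 and 0.255) or replicate 2 (adjusted p = 0.169, 0.115 and 0.262), leaving Plin2. Acadvl shares 42.9% of its exon bases with Dvl2 on the other strand. The oxidation gene Pdk4 (log2 0.37 ± 0.1) and the lipase inhibitor Angptl4 (log2 0.38 ± 0.17) were not called.

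The receptor genes themselves were not called. Nr1h2, which encodes LXRβ, was at 37.7 and 65.3 CPM with both ligands, against 67 and 65.3 CPM in ES control, with replicate 1 apart from the other 3 libraries (adjusted p = 0.358). Nr1h3, which encodes LXRα and is a target of its own product in human macrophages, stayed at 1.24 and 1.18 CPM, against 1.47 and 1.5 CPM in ES control. Rxra was at 18.8 and 23.8 CPM with both ligands, against 28.7 and 29.6 CPM in ES control, without overlap. It did not pass (adjusted p = 0.101) and did in the 18-library fit (adjusted p = 0.00314), whose shared spread would be too small for the both-ligand libraries. Rxrb was at 68.9 and 69.3 CPM, against 73.2 and 71.1 CPM in ES control, and Rxrg, the third RXR gene, at 0.775 and 1.38 CPM, against 0.898 and 1.06 CPM.

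Of 16 tested genes of the primitive streak and early mesoderm, which form at the start of gastrulation, 8 fell and 0 rose (10 and 0 at an unadjusted p below 0.05), with a median log2 difference of -1.0, and 7 to 12 fell when 1 library was left out. Their median GC content was 57.3%, and with GC offsets 10 fell and 0 rose. T (Brachyury), the streak and notochord factor, was at 99.9 and 102 CPM with both ligands, 143 and 144 CPM with GW3965, 111 and 103 CPM with LG268 and 173 and 161 CPM in ES control. The both-ligand and LG268 libraries were the lowest, and T fell 1.65-fold against ES control (adjusted p = 0.00185) and differed from LG268 alone by log2 -0.08 ± 0.07 (adjusted p = 0.599). Eomes, of streak and definitive endoderm, was at 25.9 and 23.1 CPM with both ligands, against 50.5 and 43.7 CPM in ES control, 1.92-fold lower (adjusted p = 0.00553).

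Within this list the low-abundance genes had the largest falls. Evx1, of the posterior streak, was at 1.81 and 1.08 CPM with both ligands, 3.12 and 4.85 CPM with GW3965, 2.01 and 1.25 CPM with LG268 and 6 and 5 CPM in ES control, a 3.80-fold fall against ES control (adjusted p = 0.0149). Lhx1, a LIM homeobox gene of the node and anterior streak, was at 3.77 and 7.54 CPM with both ligands, 15.9 and 16.0 CPM with GW3965, 6.40 and 4.91 CPM with LG268 and 18.9 and 18.8 CPM in ES control. Its both-ligand libraries differed 2-fold from each other and still lay below both controls (3.31-fold lower, adjusted p = 0.0154). Msgn1 and Mixl1, mesoderm factors, and the ligand gene Wnt3 fell 3.90-fold, 2.24-fold and 1.97-fold (adjusted p = 0.0155, 0.0108 and 0.0185). Snai1, of the epithelial to mesenchymal transition, fell 2.23-fold (adjusted p = 0.0309, but 0.0607 and 0.0555 without ES control replicate 1 or 2). Mesp1, the cardiac mesoderm factor, was at 0.0516 and 0.296 CPM with both ligands, against 0.980 and 1.31 CPM in ES control, and did not pass (adjusted p = 0.0665).

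Secreted signals were also among the 10 largest falls. Fgf5, the marker of primed epiblast, was at 17.6 and 15.3 CPM with both ligands, 41.2 and 37.7 CPM with GW3965, 23.8 and 24.7 CPM with LG268 and 52.9 and 50.7 CPM in ES control. The groups were all separate, with a 3.15-fold fall against ES control (adjusted p = 0.000177) and 2.41-fold against GW3965 alone (adjusted p = 0.00497), and a log2 difference of -0.56 ± 0.11 from LG268 alone that did not pass (adjusted p = 0.0988). Enpp2, the enzyme autotaxin that makes lysophosphatidic acid, fell 2.71-fold (20.3 and 17.0 CPM with both ligands, against 48.5 and 52.8 CPM in ES control, adjusted p = 0.000699). Fst, the activin inhibitor follistatin, fell 2.25-fold (adjusted p = 0.00304). Apln, a peptide ligand, and Aplnr, its receptor, fell 2.24-fold and 2.34-fold (adjusted p = 0.00682 and 0.0029).

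The primed epiblast list, which includes Fgf5, moved in both directions, with 4 of 15 lower and 1 higher (median log2 -0.36). Dnmt3b, a de novo DNA methyltransferase, was at 262 and 266 CPM with both ligands, against 401 and 398 CPM in ES control, 1.51-fold lower (adjusted p = 0.00185). Lef1, a Wnt effector, and Zic2 fell 1.78-fold and 1.31-fold (adjusted p = 0.0263 and 0.0356), and both calls ended without ES control replicate 1 (adjusted p = 0.11 and 0.172), that of Zic2 also without replicate 2 and with GC offsets (adjusted p = 0.301 and 0.304). Wnt8a rose instead, at 46.2 and 45.2 CPM with both ligands, 23.3 and 23.3 CPM with GW3965, 51.4 and 55.1 CPM with LG268 and 22.5 and 22.8 CPM in ES control. It was 2.02-fold above ES control (adjusted p = 0.00136). Otx2, Fgf8 and Foxd3 were lower without passing (log2 -0.34, -0.85 and -1.36, adjusted p = 0.0596, 0.0539 and 0.0561). Fgf8 and Foxd3 passed in the 18-library fit (adjusted p = 0.00455 and 0.00559), whose shared spread would be too small for the both-ligand libraries.

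**Figure D5:**
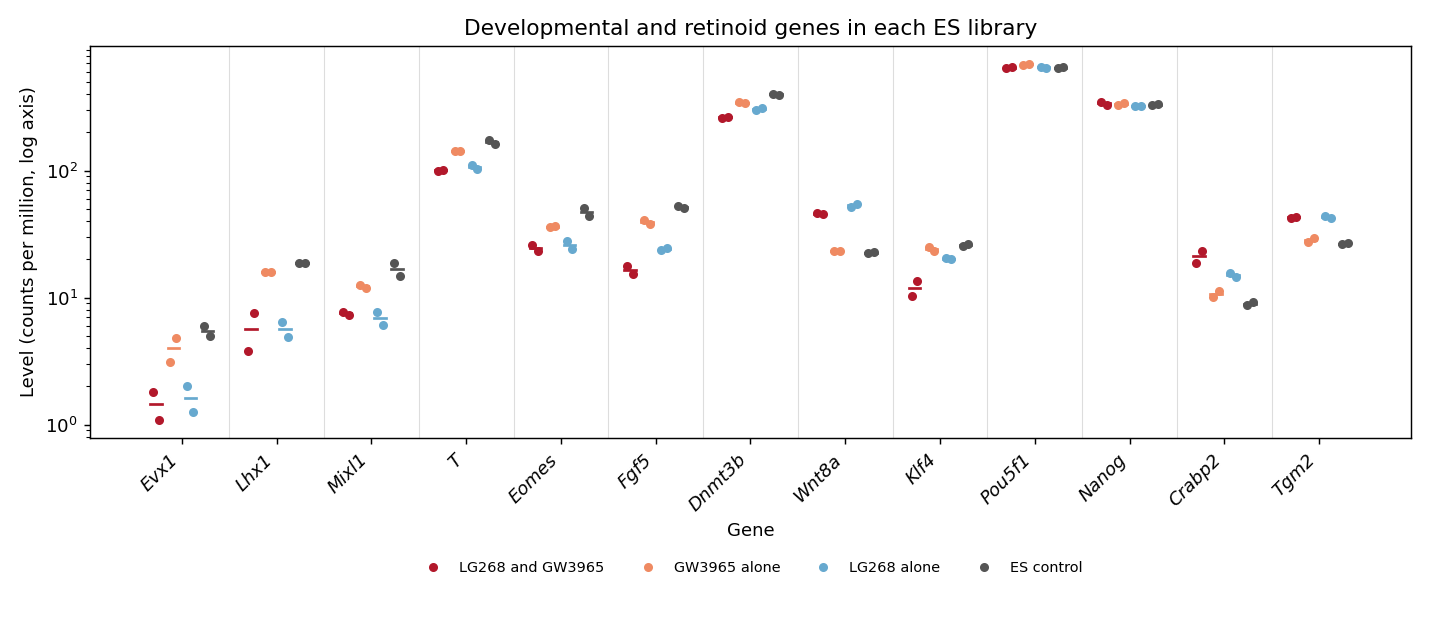
Levels of 13 developmental, pluripotency and retinoid genes (CPM, log axis) in each ES library, with points for libraries, bars for group means, and the groups in the order both ligands, GW3965 alone, LG268 alone and ES control from left to right. For Evx1, Lhx1, Mixl1, T and Eomes the both-ligand and LG268 points lie together below ES control, for Tgm2 and Wnt8a they lie together above it, and Pou5f1 and Nanog are level.

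Of 24 pluripotency factors 5 fell and 0 rose (9 and 4 at an unadjusted p below 0.05, median log2 -0.15), beside 1.06% lower and 1.81% higher over all genes tested. Klf4, a factor of naive pluripotency, was at 10.3 and 13.5 CPM with both ligands, 25.0 and 23.2 CPM with GW3965, 20.4 and 20 CPM with LG268 and 25.6 and 26.5 CPM in ES control. It was lowest with both ligands, 2.18-fold below ES control (adjusted p = 0.00779) and 2.03-fold below GW3965 alone (adjusted p = 0.0279), and the log2 difference of -0.76 ± 0.14 from LG268 alone did not pass (adjusted p = 0.0791). Sox2 was at 121 and 150 CPM, against 197 and 195 CPM in ES control, 1.44-fold lower (adjusted p = 0.0333), and Tbx3, Klf5 and Zfp42 fell 1.79-fold, 1.46-fold and 1.29-fold (adjusted p = 0.0431, 0.0445 and 0.0413). The count was 1 without ES control replicate 1 and 3 without replicate 2, with Klf4 kept in both. Without both-ligand replicate 2 it was 12 lower and 2 higher. Pou5f1 differed by log2 0.00 ± 0.054 and Nanog by 0.03 ± 0.061, and Esrrb, Tfcp2l1 and Dppa3 were not called (log2 -0.17, 0.17 and 0.29).

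Of 13 Nodal pathway genes 2 rose and 0 fell, where 2.87% of all genes tested were called. Lefty1, a Nodal inhibitor, was at 105 and 131 CPM with both ligands, against 74.6 and 73.8 CPM in ES control, 1.59-fold higher (adjusted p = 0.0185), with 17.9% of its 50-mers found in another gene. Skil rose 1.21-fold (adjusted p = 0.0431, but 0.348 and 0.41 without ES control replicate 1 or 2). Of 17 FGF signalling genes 3 rose and 1 fell, Fgf5, which also counts in the primed epiblast list. Fgfbp3, a secreted FGF binding protein, was at 29.3 and 28.5 CPM with both ligands, 16.3 and 17.7 CPM with GW3965, 14.3 and 17.4 CPM with LG268 and 4.37 and 6.02 CPM in ES control. It stood highest with both ligands and rose 5.54-fold (adjusted p = 0.000204), and the feedback phosphatase gene Dusp6 rose 1.64-fold (adjusted p = 0.00783). Tet2, which oxidises methylcytosine, rose 1.59-fold (adjusted p = 0.0129).

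Bcl2, the inhibitor of apoptosis, was, by fold, the highest gene outside the lists among the 10 largest rises named. It was at 29.3 and 26.4 CPM with both ligands, 9.56 and 10.3 CPM with GW3965, 13.4 and 10.5 CPM with LG268 and 5.92 and 5.00 CPM in ES control. The both-ligand libraries stood above all others, 5.12-fold over ES control (adjusted p = 0.000119), 2.82-fold over GW3965 alone (adjusted p = 0.00497) and 2.32-fold over LG268 alone (adjusted p = 0.00731). Of 12 genes of p53 and apoptosis, 1 rose by edgeR, Trp53inp1, by 1.56-fold (adjusted p = 0.00304), beside 1.81% over all genes tested. At an unadjusted p below 0.05, 6 were higher and 1 lower. DESeq2 and limma-voom each called 3 higher and 0 lower.

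Markers of other cell types are read against the 2.87% of all genes called. Of 12 endoderm and 9 fibroblast genes tested, 0 were called in the 4-library edgeR fit (4 and 2 at an unadjusted p below 0.05, 0 and 1 by DESeq2, 0 and 1 by limma-voom), and of 7 neural progenitor genes 1 was. With GC offsets 0 endoderm and 2 fibroblast genes were lower, beside 4.13% of all genes. The 18-library fit had 1 of 15 and 2 of 11 lower, beside 6.47% of all genes. The summed levels of the endoderm, fibroblast and neural progenitor lists were 511.3 and 579.6 CPM, 1600 and 1953 CPM, and 167.4 and 157.4 CPM with both ligands, against 569.6 and 576.2 CPM, 2275 and 2206 CPM, and 188.6 and 183.1 CPM in ES control, of which most of the fibroblast sum was Fn1. Within the endoderm list 5 genes were at 20 CPM or more, the matrix genes Lamb1, Col4a1, Col4a2 and Lama1 and the adaptor gene Dab2, while Afp and Ttr were at 0 to 0.0493 CPM in all 4 libraries. The neural factor Pax6 rose 2.55-fold (adjusted p = 0.0491), which ended without ES control replicate 1 or 2 (adjusted p = 0.147 and 0.056). Of 11 neuronal genes Map2 and Stmn2 rose, 1.43-fold and 1.22-fold (adjusted p = 0.0263 and 0.047), and both ended without either ES control library (adjusted p between 0.141 and 0.386). Of 11 trophoblast genes 2 rose and 1, Eomes, fell. The keratin genes Krt8 and Krt18, of trophoblast and other epithelia, rose 1.51-fold and 1.48-fold (adjusted p = 0.0306 and 0.00724). The Krt8 call ended without ES control replicate 1 (adjusted p = 0.0573), and 26.9% of its 50-mers were found in another gene. The trophoblast factor genes Elf5 and Gata3 were at 0.0365 to 2.17 CPM in the 4 libraries. In bulk RNA, fewer cells of a type and less RNA per cell cannot be told apart.

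In the large housekeeping groups the counts of calls lay near those over all genes, of which 1.81% were higher and 1.06% lower. Of 83 genes of cytosolic ribosomal proteins 0 rose and 1, Rpl41, fell (1.23-fold, adjusted p = 0.0343, but 0.247 and 0.354 without ES control replicate 1 or 2). Of 89 respiratory chain genes 0 rose and 2 fell, Atp5d 1.85-fold and Atp5k 1.53-fold (adjusted p = 0.0362 and 0.0208). At an unadjusted p below 0.05, 14 were lower and 4 higher. Of the 89, 35 lay below both controls and 8 above, beside 27.2% and 26.5% over all genes tested. The Atp5k call ended without ES control replicate 2 (adjusted p = 0.139) and the Atp5d call in DESeq2 (adjusted p = 0.0607). Atp5d, at 35.6 and 54.9 CPM with both ligands, against 83.4 and 84.0 CPM in ES control, is one of the genes in which replicate 1 lay far below replicate 2. Of 24 cell cycle genes 1, Ccnd1 (cyclin D1), fell 1.39-fold (adjusted p = 0.0208), and of 13 immediate early genes 1, Myc, fell 1.61-fold (adjusted p = 0.0416). Both calls ended without ES control replicate 1 (adjusted p = 0.179 and 0.132) or replicate 2 (adjusted p = 0.056 and 0.12). Of 12 genes of endoplasmic reticulum chaperones and the unfolded protein response 0 were called in the 4-library edgeR fit (4 at an unadjusted p below 0.05, 0 by DESeq2 and 0 by limma-voom). The 18-library fit had 2 higher and 1 lower, beside 4.83% and 6.47% of all genes. Of 16 genes of the integrated stress response 1, the cystine transporter gene Slc7a11, rose 1.47-fold (adjusted p = 0.0142), a call that ended without ES control replicate 2.

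Set against each ligand alone, in fits of the 4 libraries compared, both ligands differed from GW3965 in 111 of 14811 genes (0.749%), 66 higher (0.446%) and 45 lower (0.304%), and from LG268 in 56 of 14865 genes (0.377%), 53 higher (0.357%) and 3 lower (0.0202%). With GC offsets the split was 278 higher and 347 lower against GW3965 and 191 higher and 121 lower against LG268, and in the 18-library fit 632 and 1199, and 280 and 442. All 3 comparisons share the both-ligand libraries. Abca1, Bcl2, Fgf5, Lpcat3 and Elovl5 differed from GW3965 alone by 1.66-fold higher, 2.82-fold higher, 2.41-fold lower, 2.05-fold higher and 1.57-fold higher. The same genes differed from LG268 alone by 14.2-fold, 2.32-fold, 1.47-fold lower (not passing), 2.70-fold and 1.86-fold. Wnt8a and Plin2 passed against GW3965 alone and not against LG268 alone, and Srebf1, Fasn and Fads2 passed against LG268 alone and not against GW3965 alone. Whether these 2 differences themselves differ was not tested.

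Some genes named above, such as Srebf1 and Nr1h2, also differed between the both-ligand libraries. Of the 711 genes past 1.25-fold, 626 were higher in replicate 2 and 85 in replicate 1. The largest gaps were in Bbc3, Ier2, Ccdc124 and Rplp1, with 12.6 and 33.0 CPM, 15.2 and 33.0 CPM, 16.8 and 35.9 CPM, and 171 and 353 CPM in replicates 1 and 2, in transcripts of 57.3 to 65.2% GC. For Rplp1, 60% of its 50-mers also occur in another gene. In the other direction were Trim30a, Tbc1d19, Gstm5 and Prkar2b, with log2 gaps of -0.54 to -0.51. Against ES control these 8 genes had adjusted p between 0.182 and 0.963 (edgeR). They were picked for their gap, which is itself the spread in that test, so these p-values say little about the ligands. The median gap was -0.02 in the 19 fatty acid synthesis genes at 20 CPM or more, and 0.26 in the 4 such retinoid targets. Genes called higher had a median GC content of 48.5% and genes called lower one of 53.3%, against 50% over all genes tested.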

How the data were processed

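The deposited files held read counts per gene symbol (23420 symbols). Per the submitters' processing notes the authors used TopHat2 2.0.7 with mm10, Cufflinks 2.0.2, HTSeq 0.6.0 and Cuffdiff 2.0.2; their order, strand setting and annotation are not given in the sources used here. The 5 summary lines of each file were left out (reads without a gene, 64.9 to 65.9% in the 4 libraries compared).

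Counts were tested in R 4.3.3 with the quasi-likelihood test of edgeR 4.0.16 (filterByExpr, TMM, two-sided, Benjamini-Hochberg over all genes tested, calls below 0.05), fitted to the 4 libraries of a comparison, because a spread shared over all 18 would be too small for the both-ligand libraries. The fit had a prior of 6.17 degrees of freedom and a common variation of 7.58%. Fold changes come from these fits. Alternatives included DESeq2 1.42.0, limma-voom 3.58.1 and, chosen after seeing the data, GC offsets and a crossed block. The code was tested on simulated data. Positions, GC content and overlaps came from GENCODE M21 (98.4% of symbols matched), promoters from RefSeq GRCm38.p6.

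Named genes were the 10 largest rises and falls at 5 CPM or more without overlap, called members of each list, a fixed set of 16 genes and the 4 largest gaps each way between the both-ligand libraries. Further members are named to describe their lists. Some genes under these rules are not reported here. The members, lists and motif were chosen with earlier results of these data known. The SE after ± was worked back from the log2 difference and the F statistic of the edgeR test. Intervals cover the fitted spread between libraries. Replicate numbers in the labels name no shared culture, so libraries were not paired.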

Additional observations from a re-analysis of the deposited data

How the results depend on the processing

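The count of calls against ES control (427) moved with the fit, and the cause was not tested. It was 1939 in the fit of all 18 libraries (829 higher, 1110 lower), 1974 in the fit of the 8 ES libraries (969, 1005), 1159 with GC offsets (545, 614), 841 without a filter (442, 399), 667 with the DESeq2 Wald test (357, 310) and 798 with limma-voom and quality weights (447, 351). So the split of 270 higher and 157 lower turned in the first 3 of these. Leaving out 1 library gave 151 to 4538. Of these 427 calls, 416 were also made by the 18-library fit, 411 with GC offsets, 411 by DESeq2 and 423 by limma-voom. Against GW3965 alone (111) the count was 1831 in the 18-library fit (632, 1199), 625 with GC offsets (278, 347) and 46 to 5233 without 1 library. Against LG268 alone (56) it was 722 (280, 442), 312 (191, 121) and 37 to 4606.

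A replicate block gave 1500 calls against ES control (691, 809), 164 against GW3965 alone (66, 98) and 701 against LG268 alone (247, 454). Gaps of same-numbered libraries correlated at 0.149, -0.163 and 0.0501, so the numbers were not taken as pairs. A crossed block against GW3965 alone gave 1148 (401, 747). More genes were lower than higher, the reverse of the 66 higher and 45 lower against GW3965 and the 53 and 3 against LG268, in each split given here for these comparisons but that with GC offsets against LG268.

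At a minimum of 50 CPM in place of 20, genes past 1.25-fold between libraries made up 5.71% with both ligands, 0.02% with GW3965, 0.0799% with LG268 and 0.358% in ES control. At 5 CPM they made up 12.8, 1.63, 1.69 and 2.62%. Of 69 called genes under the naming rule, 46 and 48 kept their calls without ES control replicate 1 or 2, 66 to 69 did under each other alternative, and 0 changed direction. With 2 libraries a group and a wide both-ligand spread, small differences may be missed.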

Other observations

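Genes outside the lists, chosen after their values were seen, include class I histocompatibility genes, which present peptides to T cells. H2-K1 was at 383 and 435 CPM with both ligands, 292 and 293 CPM with GW3965, 255 and 270 CPM with LG268 and 170 and 165 CPM in ES control. The groups did not overlap, and it rose 2.44-fold over ES control (adjusted p = 0.000108, edgeR). H2-K2 rose 2.97-fold and H2-Q10 2.75-fold (adjusted p = 0.00385 and 0.00303), with 10.9 and 19.7% of their 50-mers found in another gene. H2-D1 was at 40 and 39.0 CPM with both ligands, against 32.0 and 28.1 CPM in ES control, and was not called (adjusted p = 0.0747). B2m, the light chain they share, was at 129 and 113 CPM, against 109 and 122 CPM in ES control (adjusted p = 0.682). The antiviral gene Rsad2 was at 6.71 and 5.91 CPM with both ligands, 2.07 and 1.30 CPM with GW3965, 3.81 and 4.64 CPM with LG268 and 2.33 and 2.34 CPM in ES control, 2.71-fold higher than ES control (adjusted p = 0.0129).

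Among the falls outside the lists, Ntn1, the guidance cue netrin-1, fell 2.04-fold and the Wnt ligand gene Wnt5a 2.06-fold against ES control (adjusted p = 0.00233 and 0.0262, edgeR). The Wnt5a call ended without ES control replicate 1 (adjusted p = 0.107). Upp1, uridine phosphorylase, was at 852 and 792 CPM with both ligands, 552 and 540 CPM with GW3965, 602 and 597 CPM with LG268 and 464 and 462 CPM in ES control, 1.78-fold higher than ES control (adjusted p = 0.000349).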
